A study of Mus musculus with 6 samples.

Results

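The transcripts described here belong to 10 genes that ERK, the terminal kinase of the RAS-RAF-MEK-ERK cascade, switches on and most of which act back on the same cascade. They were taken by name from a fixed list, which was chosen with earlier results of these data known. It held the phosphatases *Dusp4*, *Dusp5* and *Dusp6* and the Sproutys *Spry1*, *Spry2* and *Spry4*. The others were the Sprouty-related genes *Spred1* and *Spred2* and the transcription factors *Etv4* and *Etv5*. All 10 were among the 40166 genes of the deposited count table and among the 15355 that passed the filter on low counts, which asked for a median of 5 or more counts in either group. The samples were 6 subcutaneous tumors grown in C57BL/6 mice from YUMM3.3, a single BRAF-mutant mouse melanoma cell line. There were 2 groups of 3 tumors, both from mice treated by oral gavage on 5 days a week, one with water as vehicle (0 mg/kg, tumors 7, 8 and 9) and one with rigosertib (RGS, 300 mg/kg, tumors 10, 11 and 12), and RNA was taken after 17 days. RGS is a RAS mimetic that interferes with the binding of RAS to its effectors, so the comparison asks how transcripts that read out ERK activity stood in treated tumors of a line whose mutant BRAF does not need RAS. Nothing in the labels states that the tumors of a group came from separate animals, and p-values measure the spread between these samples.

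In growing cells the RAS-RAF-MEK-ERK cascade relays signals from surface receptors, and active ERK turns on genes that switch the cascade off again. DUSP proteins of this kind remove the activating phosphates from MAP kinases: DUSP6 acts on ERK in the cytoplasm, DUSP5 on ERK in the nucleus, and DUSP4, also nuclear, on ERK and related kinases. Sproutys and SPREDs act higher up, at the level of receptors, adaptors, RAS and RAF. ETV4 and ETV5 are ETS-family transcription factors of the PEA3 group that carry the ERK signal to further genes. In BRAF-mutant melanoma the mutant kinase is less sensitive to feedback at the level of RAS, transcripts of these genes are high, and they fall when BRAF or MEK is inhibited, which is why they are used as a readout of ERK output.

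The libraries held between 13837932 and 32555494 counts, with every vehicle library deeper than every RGS library, so depth cannot be separated from treatment in this design. Levels are given as CPM, the counts scaled to library size with edgeR's TMM factors, or as RPKM, which is CPM per kilobase of the gene length in the table. Mitochondrial genes took 2.13% to 3.20% of the counts in vehicle and 5.60% to 8.22% in RGS tumors. Libraries of the same group all differed beyond counting noise (chi-square over its degrees of freedom 18.5 or more for each pair), and each was kept as a replicate. Among 7 markers of the melanocyte lineage, *Tyr*, *Dct* and *Mlana* had no count in any tumor, and the summed level of all 7 was 4.94 to 7.68 CPM with vehicle and 4.53 to 10.5 CPM with RGS. Of 6 leukocyte markers, *Ptprc* and *Adgre1* had no count in any tumor and *Csf1r* at most 1. The summed level of the 6 was 246 to 313 CPM with vehicle and 1007 to 1096 CPM with RGS. Nearly all of it was *Laptm5*, *Cd68* and *Cd53*, which did not move alike. *Laptm5* averaged 176.5 CPM with vehicle and 901 CPM with RGS and was called higher (edgeR log2 fold change 2.35, adjusted p = 9.00e-09). *Cd53* was called higher too (1.41, adjusted p = 5.43e-06), and *Cd68* did not pass (0.24, adjusted p = 0.293). The sum over 6 endothelial markers was 6.25 to 11.5 CPM with vehicle and 20.6 to 29.3 CPM with RGS. Nearly all of it was *Egfl7* and *Cdh5*, both called higher. *Pecam1* did not pass (edgeR log2 fold change 1.88, adjusted p = 0.351), *Emcn* had no count, and *Tie1* and *Kdr* had at most 3 and 6 counts in a tumor. The sum over 6 fibroblast markers was 393 to 582 CPM with vehicle and 290.4 to 318 CPM with RGS. The fibroblast markers did not move together: *Col1a2*, *Col3a1* and *Pdgfra* were called lower, *Dcn* was called higher (log2 fold change 3.24, adjusted p = 6.23e-05), *Col1a1* did not pass (0.10, adjusted p = 0.811), and *Lum* had no count. The part of these shifts in the results below was not tested, nor was which cells made the marker transcripts. In bulk tissue fewer cells of a type and less RNA per cell cannot be told apart.

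Promoter sequence was at hand from RefSeq (GRCm38.p6) for 7 of the 10 genes, in 8 windows, of which the 250 bases before the RefSeq start of transcription were searched. In 6 of the 8 windows the 50 bases after that start lay in an annotated transcript of the gene. The 4 shown are those of *Spred2* and *Dusp5*, which were called higher with RGS, and of *Dusp6* and *Etv5*, which did not pass the threshold and hold a short core of the site bound by Capicua (CIC), the repressor that ERK removes from such genes. Bases in capitals match one of the motifs searched on both strands. The windows of *Spred2* and *Dusp5* run past the annotated starts of these genes (19924375 and 53529109), and the short core in *Dusp5* lies across that start. The window shown for *Etv5* lies wholly inside the annotated gene, which starts at 22439719 on the - strand.
Spred2 (chr11:19924192-19924441, + strand): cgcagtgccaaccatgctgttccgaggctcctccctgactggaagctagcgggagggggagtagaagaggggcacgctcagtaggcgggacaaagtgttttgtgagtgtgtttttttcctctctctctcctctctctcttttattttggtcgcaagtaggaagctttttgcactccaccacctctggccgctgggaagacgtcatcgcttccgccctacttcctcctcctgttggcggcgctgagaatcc
Dusp5 (chr19:53528895-53529144, + strand): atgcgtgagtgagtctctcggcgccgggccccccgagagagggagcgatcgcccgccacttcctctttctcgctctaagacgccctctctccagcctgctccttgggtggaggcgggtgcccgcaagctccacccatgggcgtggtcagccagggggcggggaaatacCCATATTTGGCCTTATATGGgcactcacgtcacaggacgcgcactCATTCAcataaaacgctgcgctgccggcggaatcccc
Dusp6 (chr10:99262981-99263230, + strand): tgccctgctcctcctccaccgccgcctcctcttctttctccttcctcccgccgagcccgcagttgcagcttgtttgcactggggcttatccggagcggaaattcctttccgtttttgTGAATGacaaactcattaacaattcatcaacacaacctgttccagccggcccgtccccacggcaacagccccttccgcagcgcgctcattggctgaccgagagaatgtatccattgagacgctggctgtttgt
Etv5 (chr16:22438369-22438618, - strand): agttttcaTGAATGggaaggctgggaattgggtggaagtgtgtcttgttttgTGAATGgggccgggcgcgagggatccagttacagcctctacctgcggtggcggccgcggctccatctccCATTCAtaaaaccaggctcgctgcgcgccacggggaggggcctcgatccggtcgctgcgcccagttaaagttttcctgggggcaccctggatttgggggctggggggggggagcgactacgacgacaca
Motifs were chosen after the windows had been seen, and a match describes letters, not a bound site. The core TGAATG was present in 3 of the 8 windows, at 1 place in *Dusp5*, 1 in *Dusp6* and 3 in the *Etv5* window shown. It was in 10.9% of all 32851 windows of this length in the table. The full CIC octamers TGAATGAA and TGAATGGA, which contain this core, were in none of the 8 windows and in 2.07% of all windows. In *Dusp5* the SRF CArG box, the element of serum response factor, was present at 2 adjoining places, from -82 to -73 and from -72 to -63 bases relative to the RefSeq start, compared with a share of 1.47% of windows holding at least 1. The ETS site CCGGAAGT (2.88% of all windows), the cAMP response element TGACGTCA (1.55%) and the AP-1 site TGANTCA (6.75%) were in none of the 8. *Spred2* held none of the motifs searched.

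In RGS-treated tumors 3 of the 10 genes, *Spred2*, *Dusp5* and *Spry4*, were called higher, and none was called lower. The share called in either direction, 30%, was close to that of all tested genes, 32.8%. The threshold was an adjusted p under 0.05 by the quasi-likelihood test of edgeR, with the Benjamini-Hochberg correction taken over all 15355 genes, at which 16.3% of all tested genes were higher and 16.5% lower. With library size as the only scaling, the split over all tested genes was 12.2% higher and 20.5% lower, and the 10 genes again had 3 higher and 0 lower. At an unadjusted p under 0.05, 4 of the 10 were higher (*Spred1* in addition) and 0 lower, beside 20.5% and 22.4% of all tested genes. DESeq2 called 4 of the 10 higher and 0 lower, beside 18% and 17.2% of all genes it tested. The median log2 fold change of the 10 genes was 0.26, and that of all tested genes was -0.05. Groups did not overlap in 5 of the 10 genes, all of them higher with RGS. Of all 15355 tested genes, 45.8% did not overlap in either direction, 3337 genes being higher and 3691 lower with RGS. Over the 10 genes together the summed level was 1109 to 1283 CPM in vehicle and 1476 to 1723 CPM in RGS tumors. The other 7 genes did not pass the threshold in either direction.

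**Figure D1:**
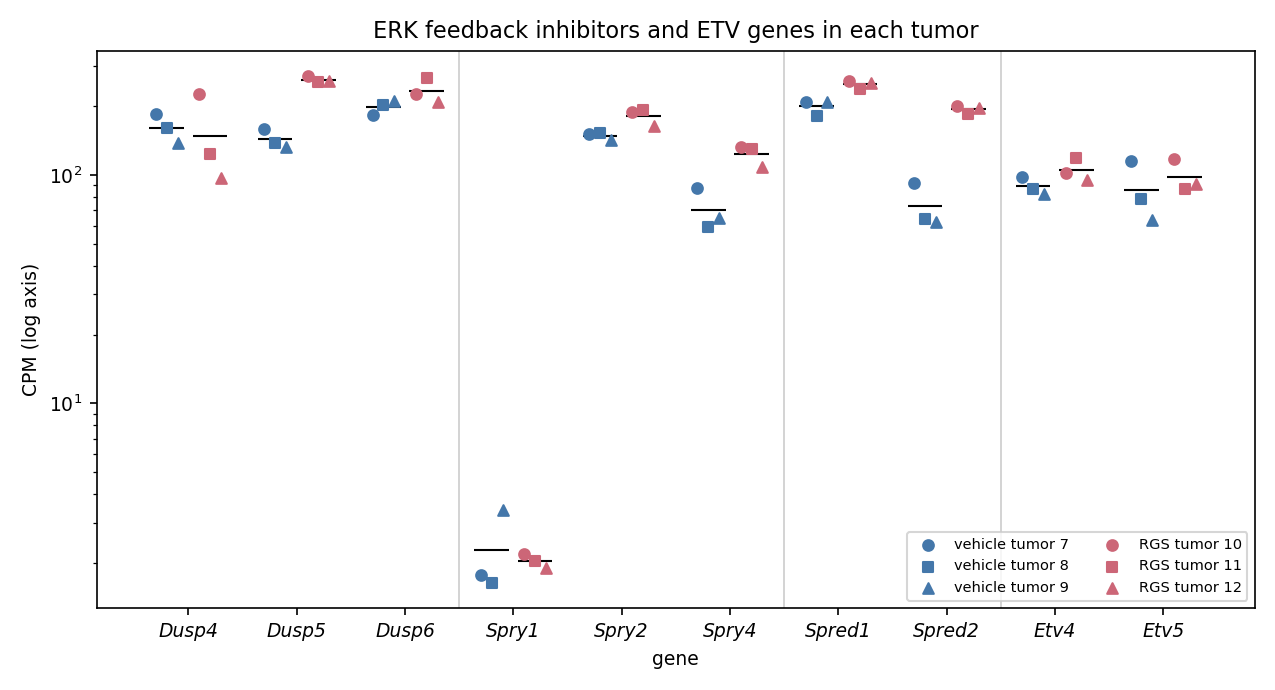
Expression of the 10 genes in each tumor in CPM on a log axis; points are tumors (blue vehicle, red RGS) and black lines are group means. The RGS points of Spred2, Dusp5, Spry4, Spred1 and Spry2 all lie above the vehicle points, and Spry1 lies far below the other genes.

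*Spred2* had the largest log2 fold change of the 10. SPRED2 is a membrane protein that brings the RAS-inactivating protein neurofibromin to RAS. Its gene (ENSMUSG00000045671.17) lies on chromosome 11 of GRCm38 from 19924375 to 20024026. The vehicle tumors 7, 8 and 9 had 92.2, 63.9 and 62.3 CPM of *Spred2*, and the RGS tumors 10, 11 and 12 had 200.3, 185 and 197 CPM. Every RGS tumor was far above the highest vehicle tumor, number 7, and the RGS tumors were close to each other. The means were 72.8 ± 16.8 and 194 ± 8.19 CPM (SD, n = 3 each), a log2 fold change of 1.41 (standard error 0.17, 95% confidence interval 1.05 to 1.78), with an adjusted p of 5.61e-06 from edgeR. This was at the 90.6th percentile of the log2 fold changes of all tested genes.

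*Spred1*, whose protein has the same function, was the more abundant of the SPRED genes in vehicle tumors. *Spred1* (ENSMUSG00000027351.14, chromosome 2, 117121374 to 117182279) was at 209.5, 181 and 209 CPM with vehicle and at 257, 238 and 254 CPM with RGS. The groups did not overlap, and the gap between the highest vehicle tumor and the lowest RGS tumor was small beside that of *Spred2*. The log2 fold change of *Spred1*, 0.32 (standard error 0.15, 95% confidence interval 0.01 to 0.63), did not pass the threshold after adjustment (adjusted p = 0.102). It passed it with DESeq2 (adjusted p = 0.0495) and without vehicle tumor 7 (adjusted p = 0.0409).

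Per length, the order of *Spred1* and *Spred2* within each tumor was exchanged between the groups. Per length, *Spred1* was at 29.4 ± 2.40 RPKM and *Spred2* at 15.8 ± 3.64 RPKM with vehicle, against 36.8 ± 1.49 and 42.0 ± 1.77 RPKM with RGS (SD, n = 3 each). The log2 ratio of *Spred1* to *Spred2* was 0.63, 0.95 and 1.19 in vehicle tumors 7, 8 and 9 and -0.20, -0.19 and -0.19 in RGS tumors 10, 11 and 12. Per length *Spred1* was thus the higher one in all 3 vehicle tumors and *Spred2* in all 3 RGS tumors. In CPM *Spred1* stayed above *Spred2* in every RGS tumor (257, 238 and 254 against 200.3, 185 and 197 CPM). The exchange of order therefore rests on the gene lengths used, 6784 and 4619 bases, while the difference between the groups does not. The ratio hardly varied between the RGS tumors. The difference of the mean log2 ratios was -1.11, and the exact two-sided permutation test gave p = 0.1, the smallest it can give with 3 against 3 (adjusted p = 0.175 over the 7 pairs of related genes compared).

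The nuclear phosphatase gene *Dusp5* (ENSMUSG00000034765.6, chromosome 19, 53529109 to 53542431) was also called higher. Vehicle tumors 7, 8 and 9 had 159.7, 138 and 133 CPM of *Dusp5*, and RGS tumors 10, 11 and 12 had 271, 255 and 259 CPM. No RGS tumor came near the vehicle range, and the RGS tumors were close to each other. The means were 143 ± 14.2 and 262 ± 8.30 CPM (SD, n = 3 each), with a log2 fold change of 0.87 (standard error 0.15, 95% confidence interval 0.55 to 1.182) and an adjusted p of 2.01e-04 from edgeR.

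*Dusp6*, the ERK-specific phosphatase most used as a readout of the pathway, and *Dusp4* did not pass the threshold. *Dusp6* (ENSMUSG00000019960.8, chromosome 10, 99263231 to 99267489) was at 183, 203 and 211 CPM with vehicle and at 227, 266 and 208 CPM with RGS. RGS tumor 12 lay below vehicle tumor 9, so the groups overlapped, and the log2 fold change was 0.23 (95% confidence interval -0.09 to 0.55, adjusted p = 0.263). Without RGS tumor 11 the value for *Dusp6* was 0.12. *Dusp4* (ENSMUSG00000031530.6, chromosome 8, 34807297 to 34819894) was the gene whose RGS tumors differed most from each other, at 226, 123 and 97.2 CPM in tumors 10, 11 and 12 beside 185, 161 and 138 CPM with vehicle. RGS tumor 10 was above all vehicle tumors and the other RGS tumors were below all of them. The log2 fold change of *Dusp4* was -0.11 (95% confidence interval -0.60 to 0.37, adjusted p = 0.744). Without RGS tumor 10 it was -0.55 and passed the threshold (adjusted p = 0.0465), and without RGS tumor 12 it was 0.10 (adjusted p = 0.782), so the direction for *Dusp4* rested on single tumors.

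Ratios between the phosphatases were also compared within tumors. The log2 ratio of *Dusp5* to *Dusp6* was 0.14, -0.22 and -0.32 in the vehicle tumors and 0.60, 0.28 and 0.65 in the RGS tumors. All RGS tumors were above all vehicle tumors, with a difference of 0.64 between the means (exact two-sided permutation test p = 0.1, the smallest possible, adjusted p = 0.175 over 7 pairs). The log2 ratio of *Dusp4* to *Dusp6* was 0.21, -0.14 and -0.42 with vehicle and 0.18, -0.92 and -0.91 with RGS, and the groups overlapped (exact permutation p = 0.3, adjusted p = 0.42). The difference of -0.43 between its means ran from -0.79 without RGS tumor 10 to -0.24 without RGS tumor 11. RGS tumor 10 stood with the vehicle tumors in this ratio.

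Among the Sproutys, *Spry4* rose. *Spry4* (ENSMUSG00000024427.6, chromosome 18, 38586268 to 38601268), like the other Sproutys an inhibitor of receptor signaling to RAS and RAF, was at 87.7, 59.2 and 64.5 CPM with vehicle and at 133, 130.3 and 109 CPM with RGS. The lowest RGS tumor, number 12, was above the highest vehicle tumor, number 7. The log2 fold change was 0.81 (standard error 0.18, 95% confidence interval 0.44 to 1.19), with an adjusted p of 0.00161 from edgeR. *Spry2* (ENSMUSG00000022114.5, chromosome 14, 105891947 to 105896819) was at 151, 152 and 142 CPM with vehicle and at 188, 192 and 164 CPM with RGS, again without overlap. Its log2 fold change of 0.29 (95% confidence interval -0.03 to 0.60) did not pass the threshold (adjusted p = 0.151). The log2 ratio of *Spry2* to *Spry4* was 1.92, 2.501 and 2.27 in the vehicle tumors and 1.63, 1.69 and 1.73 in the RGS tumors, lower in every RGS tumor (difference -0.55, exact permutation p = 0.1, the smallest possible).

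*Spry1* (ENSMUSG00000037211.12, chromosome 3, 37639947 to 37644598) was nearly silent in these tumors. It had 62, 46 and 79 counts in the vehicle and 46, 27 and 31 counts in the RGS tumors, or 1.64 to 3.40 CPM and 1.90 to 2.18 CPM. The RGS tumors lay inside the vehicle range, and vehicle tumor 9 stood above the rest. The log2 fold change of *Spry1* was -0.15 (95% confidence interval -1.61 to 1.31, adjusted p = 0.891). A difference of the size seen for *Spry4*, in either direction, lies inside this interval. Without vehicle tumor 9 the sign turned (0.26, adjusted p = 0.878). The ratios of *Spry1* to *Spry2* and to *Spry4* rest on these low counts: the first overlapped between the groups (exact permutation p = 0.4), and the second had a mean difference of -0.91 (p = 0.1, adjusted p = 0.175). Without vehicle tumor 9 these differences were 0.0038 for *Spry1* to *Spry2* and -0.52 for *Spry1* to *Spry4*.

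Neither ETV gene passed the threshold. *Etv4* (ENSMUSG00000017724.14, chromosome 11, 101769742 to 101785371) was at 97.9, 87.2 and 82.4 CPM with vehicle and at 102, 118 and 94.96 CPM with RGS. RGS tumor 12 was just under vehicle tumor 7, and the log2 fold change was 0.24 (95% confidence interval -0.10 to 0.57, adjusted p = 0.282), or 0.13 without RGS tumor 11. *Etv5* (ENSMUSG00000013089.15, chromosome 16, 22381309 to 22439719) was at 116, 78.7 and 63.8 CPM with vehicle and at 117, 86.7 and 91.0 CPM with RGS. Here vehicle tumor 7 was as high as the highest RGS tumor and the remaining vehicle tumors were below every RGS tumor. The log2 fold change of *Etv5* was 0.19 (95% confidence interval -0.23 to 0.62, adjusted p = 0.500), and without vehicle tumor 7 it was 0.47 and passed the threshold (adjusted p = 0.0382), while without vehicle tumor 9 or RGS tumor 10 it was 0.02 or 0.05. The log2 ratio of *Etv4* to *Etv5* ranged from 0.16 to 0.77 in vehicle and from 0.19 to 0.85 in RGS tumors, with a difference of 0.01 between the means (exact permutation p = 1).

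**Figure D2:**
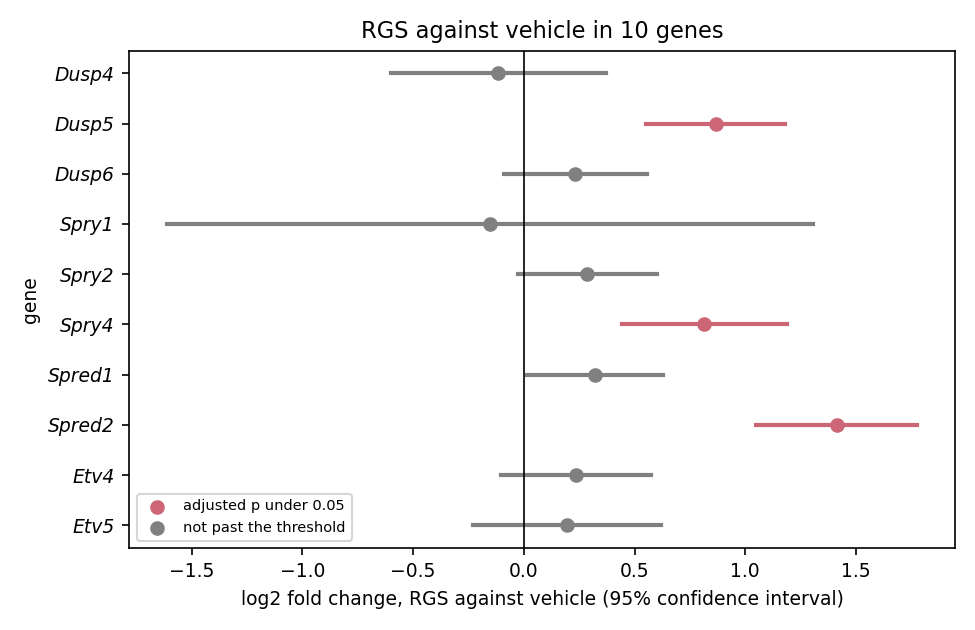
Log2 fold changes of RGS against vehicle from edgeR for the 10 genes, with 95% confidence intervals; red marks an adjusted p under 0.05. Spred2 at 1.41, Dusp5 at 0.87 and Spry4 at 0.81 lie clear of 0, and the interval of Spry1 is the widest.

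Vehicle tumor 7 was the highest of its group in 7 of the 10 genes (*Dusp4*, *Dusp5*, *Spry4*, *Spred1*, *Spred2*, *Etv4* and *Etv5*), as it was in 41.1% of all tested genes. RGS tumor 10 was the highest of its group in 7 of the 10 genes, and in 35.7% of all tested genes. *Dusp6*, *Spry2* and *Etv4* had their highest RGS value in tumor 11, and *Dusp6* and *Spry2* were not highest in vehicle tumor 7 either. Leaving out vehicle tumor 7 brought the number of genes called higher to 5, by adding *Spred1* and *Etv5*, in a fit that called 16.9% of all its tested genes higher. *Spred2*, *Dusp5* and *Spry4* passed the threshold in all 13 alternative fits made for each gene, with log2 fold changes from 1.27 to 1.62, from 0.73 to 0.95 and from 0.67 to 1.002.

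Most of these transcripts were abundant. Per length, *Spry2* led the vehicle tumors at 71.2 ± 2.75 RPKM (SD, n = 3), above *Dusp6* (63.6 ± 4.62), *Dusp4* (58.8 ± 8.60) and *Dusp5* (58.0 ± 5.76), and these 3 phosphatases overlapped in their tumor values. *Spred1* (29.4 RPKM), *Etv4* (28.7), *Etv5* (21.0), *Spred2* (15.8) and *Spry4* (15.4) followed, each overlapping with the next, and *Spry1* closed the order at 0.781 RPKM. With RGS *Dusp5* led at 106 ± 3.36 RPKM, above every tumor value of *Spry2* (86.8 ± 7.29), and *Spred2* moved from the eighth to the fifth place. The neighbors *Spry2*, *Dusp6*, *Dusp4* and *Spred2* overlapped in the RGS tumors, *Spred2* was above *Spred1* without overlap, and *Spred1* overlapped with *Etv4* and *Spry4* with *Etv5*. The median tested gene was at 3.80 RPKM with vehicle and 3.45 RPKM with RGS. By level, 9 of the 10 genes were at or above the 79.0th percentile of tested genes in both groups, and *Spry1* was at the 26.8th in vehicle and the 26.4th in RGS tumors.

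**Figure D3:**
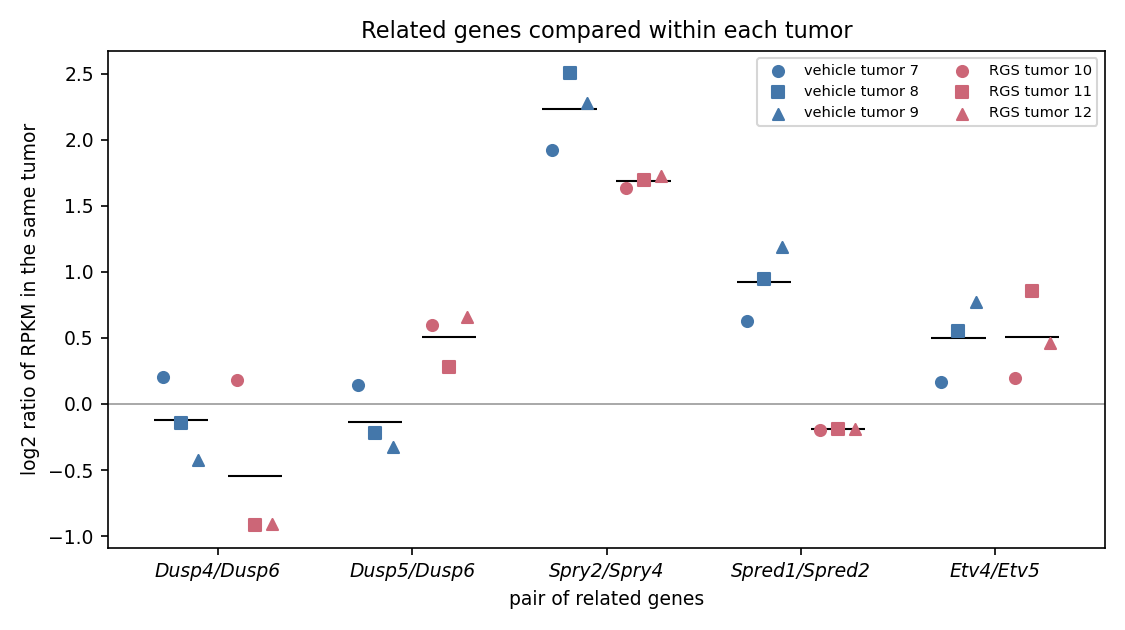
Log2 ratio of the RPKM of related genes in the same tumor for 5 pairs; points are tumors (blue vehicle, red RGS) and black lines are group means. Spred1/Spred2 lies above 0 in the vehicle tumors and near -0.19 in the RGS tumors, and the Dusp5/Dusp6 points do not overlap either, but at p = 0.1 (exact permutation test, adjusted p = 0.175) neither difference passed; Etv4/Etv5 overlaps.

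The lists below, like the 10 genes above, were chosen with earlier results of these data known. The other dual-specificity phosphatases of MAP kinases were listed next, with *Dusp1*, *Dusp2*, *Dusp7*, *Dusp8*, *Dusp9*, *Dusp10* and *Dusp16*. All 7 were tested, 5 were higher with RGS and 0 lower (6 higher and 0 lower at an unadjusted p under 0.05 in edgeR), with a median log2 fold change of 0.78. Over all tested genes 16.3% were higher and 16.5% lower at the threshold, and 20.5% and 22.4% at the unadjusted p. *Dusp8*, whose protein acts mainly on the stress kinases JNK and p38, was at 9.45, 4.92 and 4.04 CPM with vehicle and at 47.5, 50.7 and 45.0 CPM with RGS. It was far above the vehicle range in every RGS tumor (log2 fold change 2.95, standard error 0.28, adjusted p = 2.84e-07). *Dusp16*, also directed at JNK and p38, had a log2 fold change of 1.36 (adjusted p = 5.55e-05), and *Dusp10*, of the same preference, one of 0.77 (adjusted p = 8.45e-04). *Dusp1*, an immediate-early phosphatase of ERK, JNK and p38, rose, averaging 148 ± 13.2 CPM in vehicle and 254 ± 26.5 CPM in RGS tumors (SD, n = 3 each), with a log2 fold change of 0.78 (adjusted p = 7.14e-04). *Dusp7*, the closest relative of *Dusp6*, had a log2 fold change of 0.49 and a borderline adjusted p of 0.0478, which rose to between 0.0555 and 0.278 with library size alone as the scaling or without vehicle tumor 8 or 9 or RGS tumor 10, 11 or 12. *Dusp2* (3.57 CPM with RGS) and *Dusp9*, both low, did not pass.

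Other transcripts known to follow ERK activity went in both directions. Of 18 such genes in the table, 17 were tested, 6 were higher and 4 lower with RGS, with a median log2 fold change of 0.28. Together 58.8% were called, beside 32.8% of all tested genes. *Ier3*, an immediate-early gene that acts on ERK dephosphorylation and survival, was at 238, 219 and 215 CPM with vehicle and at 1113, 1392 and 1387 CPM with RGS. *Egr1*, an immediate-early transcription factor, was at 272, 257 and 258 CPM with vehicle and at 75.1, 58.3 and 71.8 CPM with RGS. The groups were far apart in both, and in opposite directions (log2 fold change 2.53 for *Ier3*, adjusted p = 1.25e-09, and -1.94 for *Egr1*, adjusted p = 4.15e-08). *Phlda1* and *Spred3*, the remaining SPRED gene, rose, with log2 fold changes of 1.22 (adjusted p = 5.99e-06) and 0.91 (adjusted p = 4.59e-04). Also called higher were *Kcnn4* (0.87, adjusted p = 4.70e-04), *Epha2* (0.66, adjusted p = 0.00353) and *Hbegf* (0.41, adjusted p = 0.0422), named here after their values were seen. The call of *Hbegf* was lost in 7 of the 13 alternatives (adjusted p from 0.0567 to 0.228). *Myc* fell, with a log2 fold change of -1.15 (adjusted p = 1.27e-05), and so did the cyclin gene *Ccnd1*, named here after its values were seen, which averaged 596 ± 99.96 CPM in vehicle and 318 ± 44.0 CPM in RGS tumors (SD, n = 3 each), with a log2 fold change of -0.90 (adjusted p = 3.46e-04). *Epha4*, an ephrin receptor with 97, 59 and 24 counts in the vehicle and 0, 5 and 0 counts in the RGS tumors, was lower (adjusted p = 0.0308), but not without vehicle tumor 7 or 8 or RGS tumor 10 or 12 (adjusted p from 0.0666 to 0.132). *Etv1*, the third gene of the PEA3 group, was at 91.3 ± 15.0 and 111 ± 3.41 CPM (SD, n = 3 each) and did not pass the threshold (log2 fold change 0.28, adjusted p = 0.193). *Spry3* had no count in any tumor.

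Of 22 tested genes of the RAS-RAF-MEK-ERK cascade and its adaptors, 6 were higher and 1 lower with RGS, with a median log2 fold change of -0.05. The share called in either direction, 31.8%, was close to that of all tested genes, 32.8%. *Map2k2*, which encodes the kinase MEK2, was at 118, 89.3 and 77.7 CPM with vehicle and at 177, 176 and 218 CPM with RGS, without overlap (log2 fold change 0.999, adjusted p = 2.46e-04). The adaptor gene *Grb2* rose as well (0.89, adjusted p = 2.09e-04). *Mapk3*, which encodes ERK1, was at 0.48 on the log2 scale (adjusted p = 0.0171). The ERK-activated kinase genes *Rps6ka1*, *Rps6ka2* and *Rps6ka3* had log2 fold changes of 1.06, 0.57 and 0.63 (adjusted p = 0.00829, 0.0400 and 0.0103). *Shoc2*, a scaffold that helps to activate RAF, was lower (log2 fold change -0.60, adjusted p = 0.00778). The calls of *Map2k2* and *Grb2* held in all 13 alternatives. That of *Mapk3* was lost with library size alone or without vehicle tumor 8 or 9 or RGS tumor 11 or 12 (adjusted p from 0.0515 to 0.1004), and that of *Rps6ka2* with library size alone or without vehicle tumor 8 or 9 or RGS tumor 10 or 11 (0.0905 to 0.191). *Rps6ka3* lost it with library size alone or without vehicle tumor 8 or RGS tumor 11 (0.0518 to 0.0633), *Shoc2* without vehicle tumor 8 (0.0628), and *Rps6ka1* without RGS tumor 10 (0.0513). The number of cascade genes called higher was then 3 with library size alone, without vehicle tumor 8 and without RGS tumor 11.

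Among 10 genes whose proteins bind or regulate the 10 feedback and ETV genes, 3 were higher and 2 lower with RGS. Together 50% were called, beside 32.8% of all tested genes. *Nf1* encodes neurofibromin, the partner of the SPRED proteins, and was at 45.2, 34.2 and 31.0 CPM with vehicle and at 62.9, 79.9 and 67.4 CPM with RGS. Every RGS tumor was above every vehicle tumor (log2 fold change 0.93, standard error 0.19, adjusted p = 9.61e-04). *Cic*, the gene of the repressor Capicua, had a log2 fold change of 0.58 (adjusted p = 0.00775), lost without RGS tumor 11 (adjusted p = 0.0512). *Cblb*, a ubiquitin ligase related to the Sprouty partner CBL, had one of 1.71 (adjusted p = 8.63e-06), while *Cbl* itself did not pass (0.23, adjusted p = 0.402). *Cav1*, the caveolin gene whose protein binds Sproutys at the membrane, fell, averaging 599 ± 69.3 CPM in vehicle and 229 ± 6.76 CPM in RGS tumors (SD, n = 3 each), with a log2 fold change of -1.39 (adjusted p = 1.40e-06). *Cop1*, the ubiquitin ligase gene whose product degrades ETV proteins, had a log2 fold change of -0.43 (adjusted p = 0.0416), lost without any filter on low counts and without vehicle tumor 8 or 9 or RGS tumor 10, 11 or 12 (adjusted p from 0.0617 to 0.121).

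**Figure D4:**
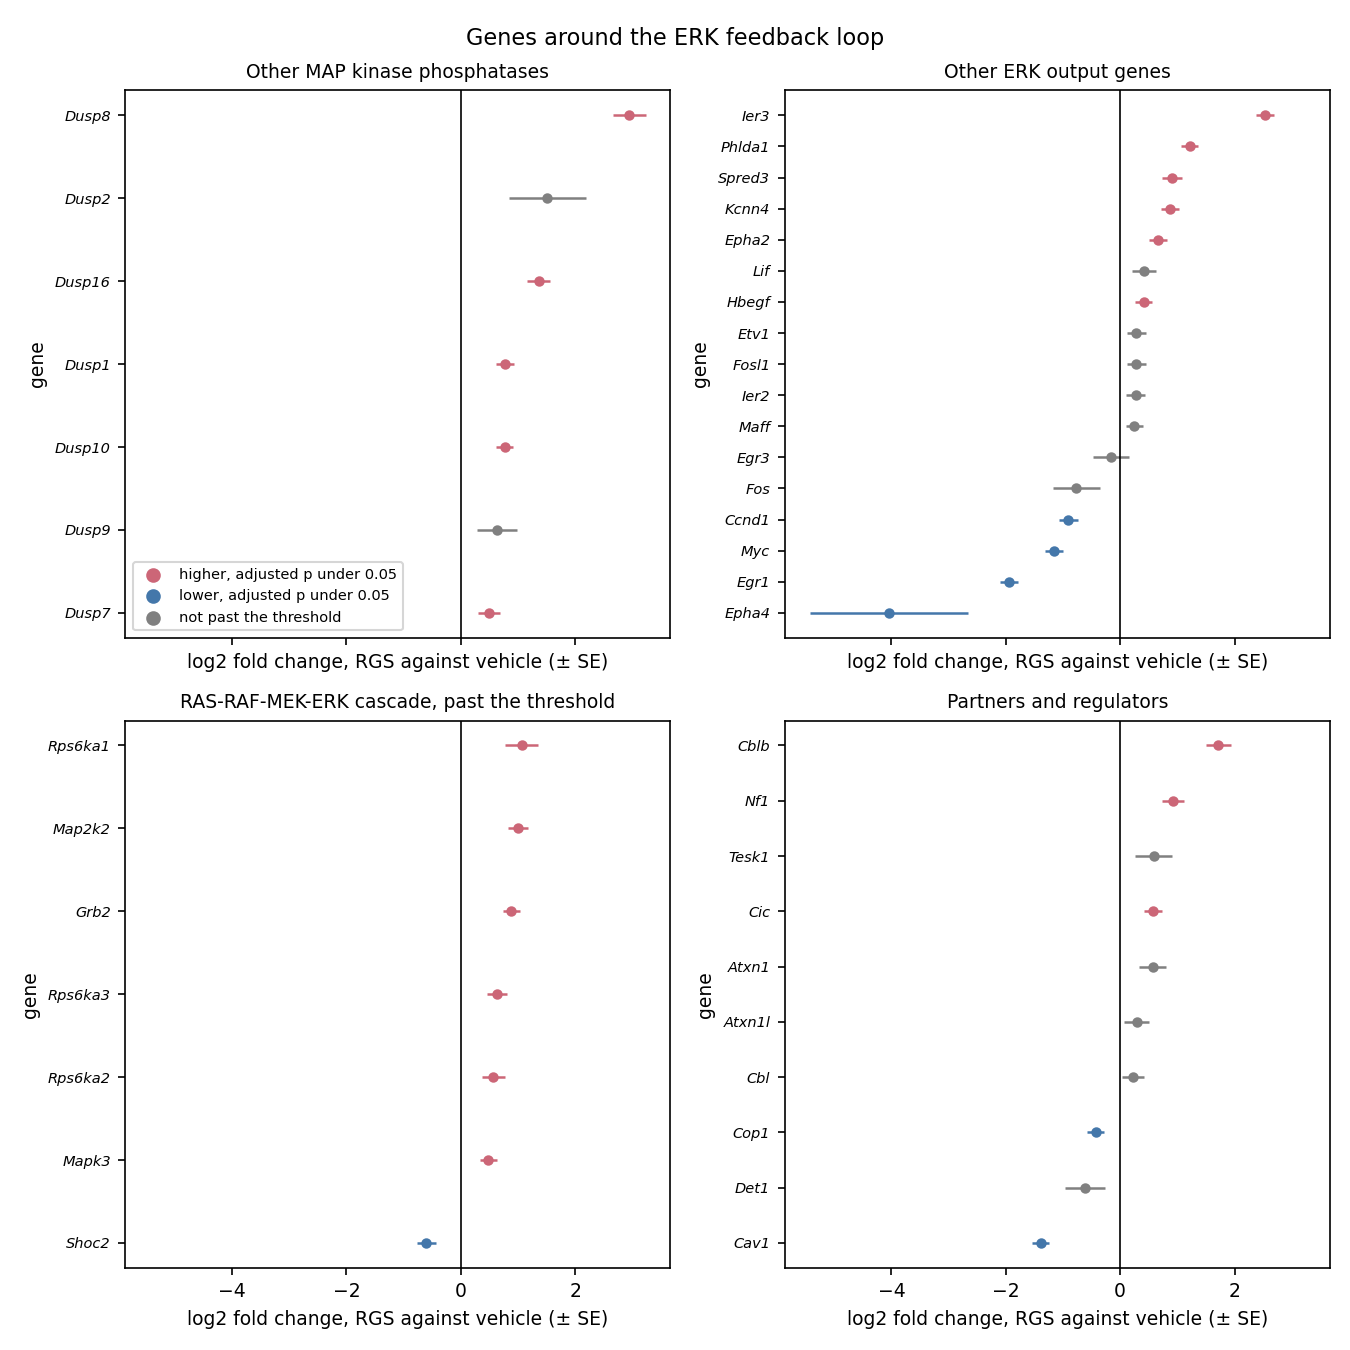
Log2 fold changes of RGS against vehicle with standard errors for genes of the 4 lists around the feedback loop (all tested genes of 3 lists, and for the cascade the 7 past the threshold); red and blue mark genes higher and lower at an adjusted p under 0.05. Phosphatases lie to the right of 0, from 0.49 for Dusp7 to 2.95 for Dusp8, while ERK output genes run from Epha4 and Egr1 on the left to Ier3 at 2.53 on the right.

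Reads of neighboring genes did not enter the counts in a way the table shows: the only annotated genes that overlap a member (1 at *Spry1* and 2 at *Spry4*) had no count in any tumor.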

How the data were processed

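RNA of 6 tumors was sequenced by the authors as paired-end reads and aligned with STAR. The submitters' processing notes name cutadapt 1.18, FastQC 0.11.7, STAR 2.7.1a, featureCounts 1.6.4 and the build mm10. The strand setting is not given in the sources used here. The authors deposited raw counts per gene, 1 column per tumor, without normalization, with each gene's length in bases. Of the gene identifiers, 38927 were also in GENCODE M21 (GRCm38), all with the same start and end. Columns were matched to samples by title, and groups were taken from the titles.

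In R 4.3.3 with edgeR 4.0.16, genes were kept where the median of either group reached 5 counts (the filter of the study's methods), TMM factors were computed, and RGS was compared with vehicle by the quasi-likelihood F test without the robust option, with the Benjamini-Hochberg correction over 15355 genes. Standard errors were taken as the ratio of the fold change on the log2 scale to the root of the F statistic. A count of 3 corresponded to 0.0856 to 0.226 CPM, and such floors cover counting error only. Ratios of related genes were compared by exact two-sided permutation over tumors. Alternatives were DESeq2 1.42.0, limma 3.58.1 (voom), RLE factors, library size only, 2 other filters, thinning to the smallest library, a limit of 1 on the absolute log2 fold change, and each tumor left out in turn. The procedure was also run on counts simulated with levels and spreads that edgeR estimated from these data. Such counts share the model of the test, so no support for the calls is drawn from that run.

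The members and lists were chosen with earlier results of these data known, and gene functions are from general knowledge. Named were the 10 members, the genes of each pathway list past the threshold (of the ERK output list, with more than 8, the 6 of largest absolute log2 fold change with a mean of at least 1 CPM), genes overlapping a member, and markers of cell types. Some that did not pass, and *Ccnd1*, *Kcnn4*, *Epha2* and *Hbegf*, were named after their values were seen. Some genes of the cascade list enter its counts and median and are not reported here by name.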

Additional observations from a re-analysis of the deposited data

How the results depend on the processing

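*Spred2*, *Dusp5* and *Spry4* kept their direction and their side of the threshold in all 13 alternatives, and of 27 called pathway genes 10 lost their call in at least 1. Leaving out each tumor in turn gave 0 to 1 members lower and 3 to 5 higher, 3 to 7 cascade genes higher and 0 to 1 lower, and 1 to 2 partners lower. Over these omissions the log2 fold change ran from -0.55 to 0.10 for *Dusp4* and from -0.33 to 0.26 for *Spry1*, with the sign turned without RGS tumor 12 and without vehicle tumor 9. With a limit of 1 on the absolute log2 fold change in addition, 1450 of all tested genes were lower and 1168 higher, beside 2533 and 2503 without it. Under this limit 1 member (*Spred2*), 2 other phosphatases, 2 ERK output genes and 1 cascade gene were higher, 3 ERK output genes and 0 cascade genes were lower, and 1 partner was lower and 1 higher. With library size only, 2 cascade genes were lower and 3 higher, and the median log2 fold change of all tested genes moved from -0.05 to -0.19, with 3152 of them lower and 1870 higher. Under this scaling the log2 fold changes were 0.10 for *Dusp6*, 0.15 for *Spry2*, 0.18 for *Spred1*, 0.09 for *Etv4* and 0.05 for *Etv5*. Without a filter on low counts 1 partner was lower, and after thinning to the smallest library 2 cascade genes were lower. The cause of these shifts was not tested, other than that the limit on the fold change takes out small differences by construction. No paired analysis was possible because the replicate numbers are not shared between the groups. Among the 10 genes, *Spry1* had the fewest counts, 27 to 79 per tumor, and of the other genes named *Epha4*, at 0 to 97 counts, was low likewise. The design, with 3 tumors in each group, cannot give an exact permutation p under 0.1 for a single measure.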

Other observations

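The 14 remaining genes named *Dusp* in the table, looked at after the values above were known, include phosphatases that lack the kinase-binding domain of the MAP kinase phosphatases. Of these, 9 were tested, 3 were higher and 4 lower with RGS (edgeR, adjusted p under 0.05). Together 77.8% of the tested ones were called, beside 32.8% of all tested genes. For *Dusp14* the vehicle tumors averaged 23.45 ± 4.15 CPM and the RGS tumors 79.0 ± 3.46 CPM (SD, n = 3 each), with a log2 fold change of 1.75 (adjusted p = 1.08e-06). *Dusp18* and *Dusp28* were also higher, by 0.69 and 1.27 on the log2 scale (adjusted p = 0.0197 and 0.0436 from edgeR). For *Dusp22* the vehicle tumors averaged 6.19 ± 1.175 CPM and the RGS tumors 1.36 ± 0.412 CPM (SD, n = 3 each), with a log2 fold change of -2.19 (adjusted p = 0.00385). *Dusp12*, *Dusp19* and *Dusp3* had log2 fold changes of -1.62, -1.19 and -0.65 (adjusted p = 0.00159, 0.0217 and 0.0493 from edgeR). The calls of *Dusp28* and *Dusp3* were borderline, and none of these *Dusp* genes was followed in the alternative fits. Here, unlike among the 7 MAP kinase phosphatases listed above, genes were called in both directions, and the difference between these lists was not tested.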
